A study of Mus musculus with 7 samples.

Results

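The genes described here are those of the proteasome, found by symbol: every gene on the array whose symbol starts with Psma, Psmb, Psmc, Psmd, Psme, Psmf or Psmg, except Psmc3ip, a meiotic recombination gene that only shares the letters. Of 18193 genes tested, 48 met this rule, and each was represented by the brightest of its probe sets (by mean over the 7 arrays). Expression was measured in whole testis of mice aged 15 to 20 weeks with Affymetrix arrays. The tested animals were Phf13 knockout mice (n = 3 arrays) and the comparison was with wild type mice (n = 4 arrays). The strain, the design of the knockout allele and the cells in which it acts are not given in the sources used here, and the samples are whole organs that hold germ cells and somatic cells together. Nothing states that each array stands for its own animal, so the p-values reflect array-to-array spread that may be partly technical. Phf13, which encodes a PHD finger protein that binds methylated histone H3, gave log2 signals of 5.86 ± 0.17 across knockout arrays (SD, n = 3) and 8.64 ± 0.08 across wild type arrays (SD, n = 4). Array medians lay between 5.01 and 5.08, and log2 signals of different probe sets are not compared with each other as levels.

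The proteasome degrades proteins that carry ubiquitin chains. Its 20S core is a barrel in which alpha subunits form the outer rings and beta subunits, some of them proteases, form the inner rings. A cap opens the barrel: the 19S particle, with a base of ATPases and a lid that removes ubiquitin, or the smaller activators 11S (PA28) and PA200. Cells exposed to interferon replace the proteolytic beta subunits with immune counterparts, and male germ cells build a variant core with the alpha subunit encoded by Psma8 and use PA200, encoded by Psme4, during the removal of histones from spermatid chromatin.

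Differences between knockout and wild type testis were small for most proteasome genes. Psma7, which encodes a core alpha subunit, and Psme1, which encodes the alpha subunit of the 11S activator, rose, and the other 46 genes did not pass the test. The test was limma's moderated test with Benjamini-Hochberg adjustment over all genes and a threshold of 0.05. Thus 2 of 48 genes (4.17%) passed, both higher in knockout, against 16.1% of all genes (9.06% higher, 7.03% lower). The median log2 fold change, knockout minus wild type, was 0.03 for the 48 genes and −0.045 for all genes, and the median absolute change was 0.098 and 0.14. Fold changes of the 48 ran from −0.27 to 0.62. The 95% interval of the fold change lay within 1.5-fold either way for 45 of 48 genes, against 83.6% of all genes. The 3 exceptions were Psma7, Psme1 and Psmb8. The genotypes were fully separated, with no overlap of arrays, for 13 of 48 genes (27.1%), 7 higher and 6 lower in knockout, against 28.0% of all genes.

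**Figure D1:**
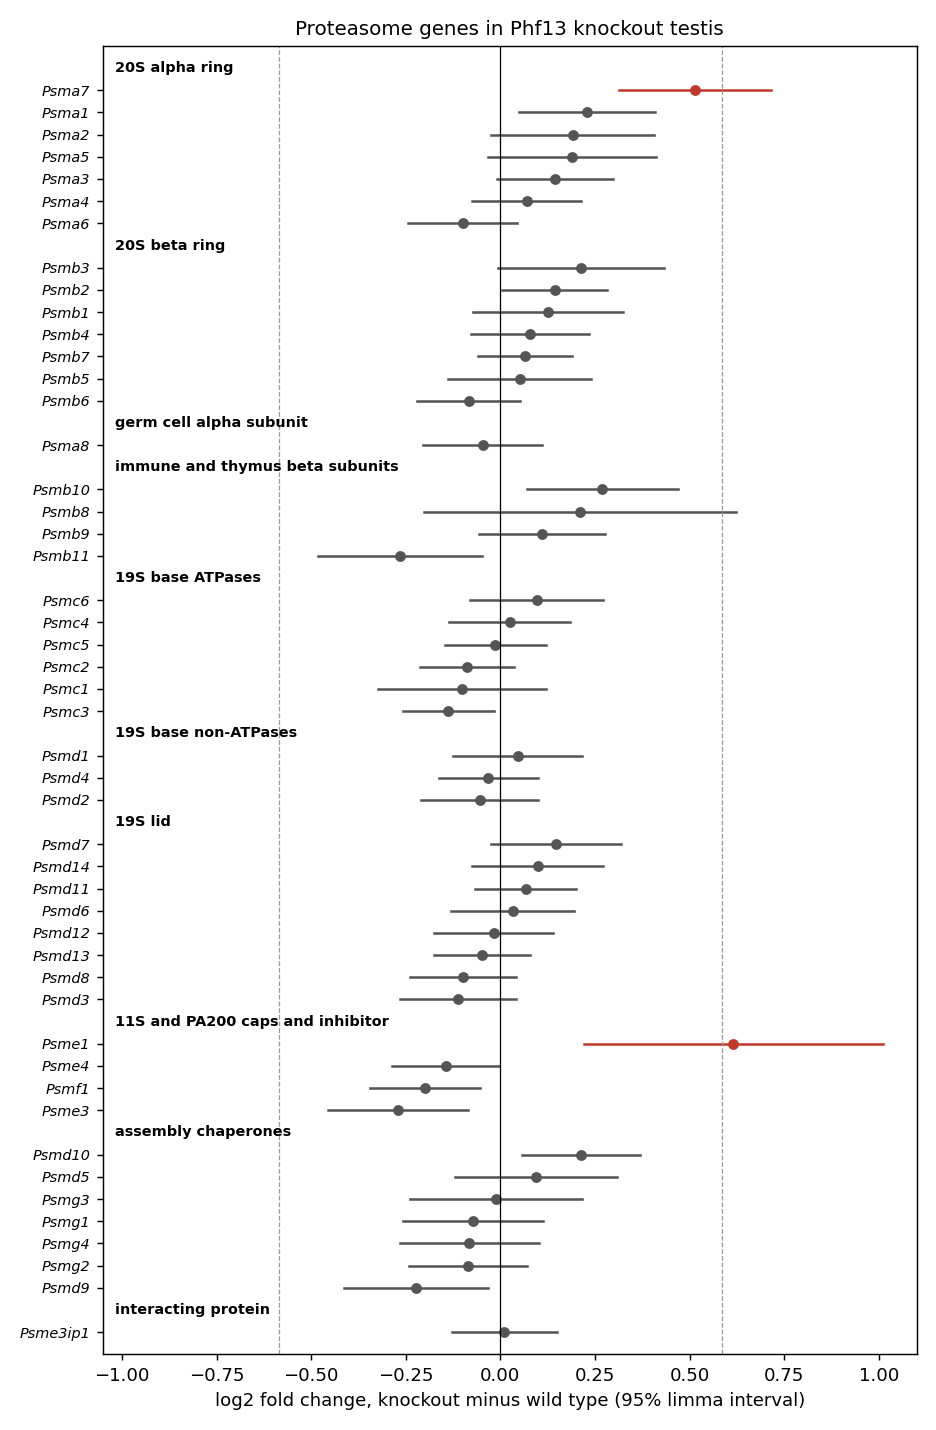
Log2 fold change (knockout minus wild type, horizontal axis) of each of the 48 genes, grouped by role, with the 95% limma interval as a bar and dashed lines at 1.5-fold either way. Psma7 and Psme1, in red, passed the adjusted threshold, and the intervals of 45 genes stay between the dashed lines.

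Psma7 encodes the alpha 4 subunit of the core, which the germ cell subunit of Psma8 replaces in the variant core. Its log2 signals were 9.20, 9.20 and 9.25 in knockout arrays, against 8.59, 8.55, 8.84 and 8.83 in wild type arrays. Every knockout array was higher than every wild type array, and the knockout arrays lay closer together than the wild type arrays. This amounted to a 1.43-fold higher level (log2 fold change 0.51, SE 0.09, limma adjusted p = 0.0134). A second Psma7 probe set gave 0.46 (SE 0.11) and also passed when all probe sets were tested (limma adjusted p = 0.0365), though not with title-number group, explained next, as a block (adjusted p = 0.0538). Arrays whose titles open with numbers of the same first 4 digits form 3 groups that each hold both genotypes, and the meaning of these numbers is not stated. Within these groups the Psma7 difference was 0.61 (knockout 1 minus wild type 1), 0.51 (knockout 2 minus wild type 2 and 3) and 0.42 (knockout 3 minus wild type 4). Without knockout 3 the fold change was 0.50 and no longer passed (limma adjusted p = 0.0560).

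Psme1 encodes PA28 alpha, which with PA28 beta forms the interferon-inducible 11S activator. Its log2 signals were 7.83, 7.89 and 8.14 in knockout arrays, against 7.21, 6.92, 7.61 and 7.61 in wild type arrays. The groups did not overlap, but wild type arrays spread more widely than knockout arrays (SD 0.34 against 0.16 in knockout). The level was 1.53-fold higher (log2 fold change 0.62, SE 0.17, limma adjusted p = 0.0458), with differences of 0.62, 0.63 and 0.53 inside the 3 title-number groups. The call was narrow. With title-number group as a block the limma adjusted p was 0.0577, which left 1 of the 48 genes past the threshold, against 12.7% of all genes (7.70% higher). It stayed past the threshold in 2 of 7 limma fits that left out 1 array (fold change 0.48 to 0.71; adjusted p up to 0.152), and it was 0.0635 when all probe sets were tested. The partner gene Psme2 shares its probe set with Psme2b, so neither was tested.

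The bases before the transcription start of these 2 genes are shown because they are the proteasome genes that passed the test. Sequences are from the RefSeq promoter table (GRCm38.p6), 250 bases 5′ to 3′ on the strand of the gene, ending at the base before the start. Psma7 lies on chromosome 2 (chr2:180042465-180042714, minus strand) and Psme1 on chromosome 14 (chr14:55578244-55578493, plus strand). Capitals mark GC boxes (GGGCGG) and CCAAT boxes (CCAAT), searched on both strands.
Psma7: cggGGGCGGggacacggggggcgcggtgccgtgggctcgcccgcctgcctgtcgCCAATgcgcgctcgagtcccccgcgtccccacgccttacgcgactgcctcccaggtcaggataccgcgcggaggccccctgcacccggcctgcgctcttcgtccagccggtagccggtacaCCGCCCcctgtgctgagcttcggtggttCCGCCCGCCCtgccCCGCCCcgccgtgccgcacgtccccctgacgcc
Psme1: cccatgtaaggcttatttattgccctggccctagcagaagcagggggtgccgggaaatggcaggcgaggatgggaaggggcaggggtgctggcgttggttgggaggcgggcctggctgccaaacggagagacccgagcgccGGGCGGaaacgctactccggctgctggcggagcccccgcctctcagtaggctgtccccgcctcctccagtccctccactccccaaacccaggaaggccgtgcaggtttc
Psma7 held 5 GC box matches and 1 CCAAT match, with 1 pair of GC boxes overlapping, and Psme1 held 1 GC box match and no CCAAT match. Of the 48 genes, 40 had a window in the table; 55.0% of these held a GC box and 37.5% a CCAAT box, against 35.4% and 37.5% of all 27025 genes with a window. A CCAAT box stood in 5 of 7 windows of alpha ring genes. The interferon-stimulated response element was searched as a single string of letters. It was found in 3 of the 40 windows (7.50%), those of Psmb3, Psmd4 and Psmd9, against 3.46% of all genes. It was not found in those of Psme1, Psmb8, Psmb9 or Psmb10. Other forms of the element and bases outside the window were not searched, so this does not show that these genes lack it. These matches describe letters in a window and do not show binding.

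Most genes of the constitutive 20S core had small positive fold changes in knockout testis. Of 14 alpha and beta ring genes, 1 rose, 0 fell and 13 did not pass (16.1% of all genes passed), and the fold change was positive for 12 of 14, against 40.1% of all genes. The median log2 fold change was 0.19 for the 7 alpha ring genes and 0.08 for the 7 beta ring genes. The count of positive genes was 12 of 14 with quantile normalization and with median centring too. It was 11 of 14 with the second brightest probe set, where the alpha ring median was 0.07, and 11 of 14 without knockout 1. Within the title-number groups the median of the 14 genes was 0.17, 0.17 and 0.06. The genotypes did not overlap for 4 of the 14 (28.6%), against 28.0% of all genes. All 4 were higher in knockout, as were 12.8% of all genes.

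Psma1, another alpha subunit gene, had log2 signals of 9.25, 9.52 and 9.37 in knockout arrays, against 9.08, 9.11, 9.18 and 9.23 in wild type arrays. The ranges were separated by a gap smaller than the spread within either genotype, and the fold change of 0.23 (SE 0.08, limma adjusted p = 0.0801) did not pass. Psma6, the brightest alpha ring probe set, ran the other way, with 11.92, 12.03 and 12.02 in knockout arrays, against 12.16, 12.09, 12.01 and 12.10 in wild type arrays (fold change −0.10, 95% interval −0.24 to 0.044). Those groups overlapped.
In the beta ring, Psmb2 had a fold change of 0.14 (SE 0.06, limma adjusted p = 0.136), Psmb3, a structural subunit gene, of 0.21 (SE 0.10, adjusted p = 0.157) and Psmb7, which encodes the trypsin-like protease subunit and is the brightest beta ring probe set, of 0.07 (SE 0.05, adjusted p = 0.423). Psmb7 had 11.12, 11.11 and 11.08 in knockout arrays, against 11.01, 11.03, 11.08 and 11.03 in wild type arrays, so that the 2 genotypes touched at 1 value.

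Wild type arrays differed among themselves in the core genes. The mean log2 signal over the 14 core genes was 10.10, 10.21 and 10.17 in knockout arrays 1, 2 and 3, against 9.96, 9.97, 10.09 and 10.09 in wild type arrays 1, 2, 3 and 4. In 10 of 14 core genes wild type 1 and 2 were both below wild type 3 and 4, so that the core genes shifted together within one genotype by about as much as between genotypes. The knockout mean exceeded the mean of wild type 3 and 4 in 12 of 14 core genes.

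**Figure D2:**
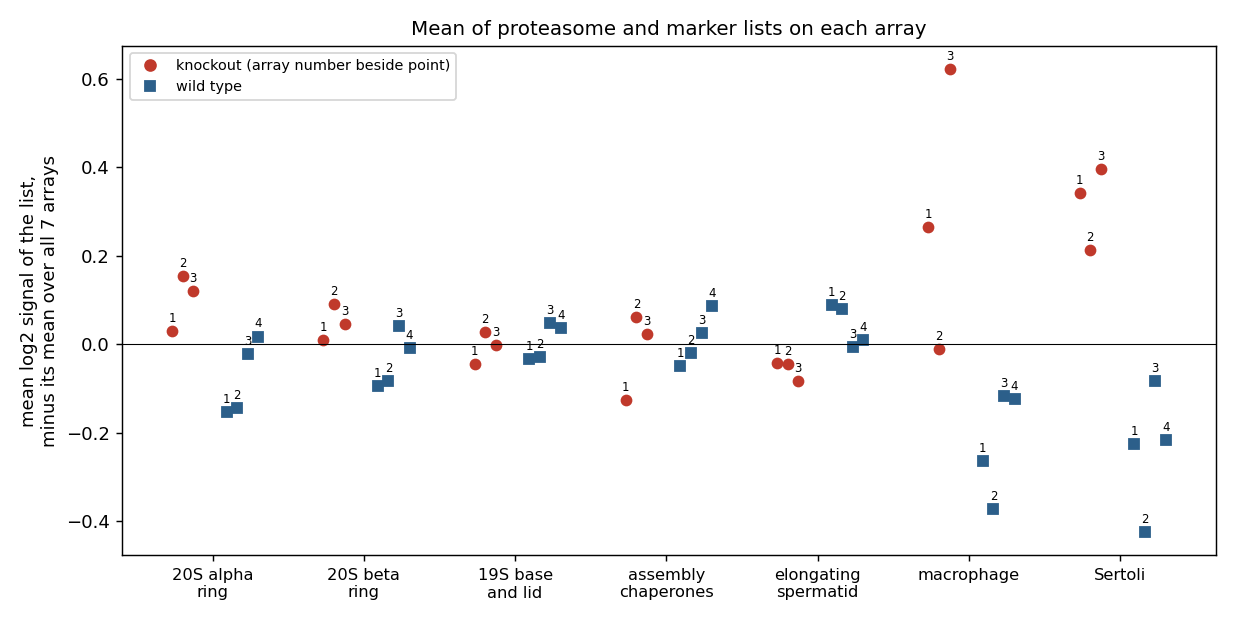
Mean log2 signal of proteasome and marker lists on each array, minus the list's mean over all 7 arrays (vertical axis), with knockout arrays as circles and wild type arrays as squares, numbered by replicate. Knockout arrays lie highest in the alpha ring, the Sertoli list and the macrophage list, and the 19S genes of the 2 genotypes overlap.

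No difference was detectable for the germ cell core subunit. Psma8 had log2 signals of 10.37, 10.55 and 10.50 in knockout arrays, against 10.44, 10.52, 10.52 and 10.60 in wild type arrays. The groups overlapped, with knockout 1 below and wild type 4 above all arrays of the other genotype, and the fold change was −0.05 (SE 0.07, limma adjusted p = 0.662) with a 95% interval of −0.20 to 0.11. Its sign turned with quantile normalization (0.04).

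The immune beta subunits replace the 3 proteolytic subunits of the standard core. None of the 4 genes in this class, the thymus subunit gene Psmb11 included, passed limma's adjusted threshold (16.1% of all genes did). Of the 4, 2 had an unadjusted p under 0.05 (33.8% of all genes did): Psmb10 and Psmb11, the latter far below the array medians. Psmb10 had log2 signals of 6.27, 6.19 and 6.43 in knockout arrays, against 6.04, 5.86, 6.08 and 6.13 in wild type arrays. All knockout arrays were higher, with a fold change of 0.27 (SE 0.09, limma adjusted p = 0.0696). Psmb9 had 5.39, 5.39 and 5.51 in knockout arrays, against 5.37, 5.27, 5.43 and 5.21 in wild type arrays, and these overlapped (fold change 0.11, SE 0.07, limma adjusted p = 0.323).
Psmb8 had 4.73, 4.45 and 5.32 in knockout arrays, against 4.54, 4.52, 4.75 and 4.68 in wild type arrays, and knockout 3 alone stood above wild type. Its fold change of 0.21 (SE 0.18, limma adjusted p = 0.440) was −0.03 without knockout 3. Mean Psmb8 signals were under the array medians, and whether they exceed background is unknown. Psmb11, which is made in thymic cortex, had 2.95, 2.73 and 2.75 in knockout arrays, against 2.95, 3.21, 3.19 and 2.95 in wild type arrays, far below the array medians, so its fold change of −0.27 (limma adjusted p = 0.0918) is not read as expression.

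Genes of antigen presentation, which uses peptides cut by the immune proteasome, were measured beside these subunits. Of 18 genes of interferon response and antigen presentation, 4 rose (22.2%, against 9.06% of all genes), 0 fell and 14 did not pass, with a median log2 fold change of 0.24. The fold change was positive for 15 of the 18. Several genes that did not pass lay near or below 0: Tap1 (0.05), Tap2 (0.0025), Nlrc5 (0.0083), Ciita (−0.09) and Ifit3 (−0.16). The class I genes B2m (1.02, SE 0.23, limma adjusted p = 0.0237) and H2-D1 (0.74, SE 0.12, adjusted p = 0.0129), the peptide-loading gene Tapbp (0.24, SE 0.06, adjusted p = 0.0377) and the class II chaperone gene Cd74 (0.93, SE 0.25, adjusted p = 0.0397) rose. In limma fits that left out 1 array, H2-D1 passed in 6 of 7, B2m in 3, Cd74 in 2 and Tapbp in 1. Averaging all probe sets gave 0.26 for H2-D1, whose class I relatives are similar in sequence, and with title-number group as a block Tapbp and Cd74 did not pass (adjusted p = 0.0664 and 0.0585).
Of 12 macrophage markers, 6 rose (9.06% of all genes did) and 0 fell. With title-number group as a block 3 of the 12 rose (7.70% of all genes did). The mean log2 signal of these markers ran from 6.90 to 7.53 in knockout arrays, against 6.53 to 6.79 in wild type arrays. Of 11 lymphocyte markers, 0 passed limma's adjusted threshold (16.1% of all genes did) and 2 had an unadjusted p under 0.05 (33.8% of all genes did). All 11 were below the median signal of tested genes, and their mean ran from 4.30 to 4.42 in knockout arrays, against 4.32 to 4.41 in wild type arrays. The part of other cell types in the immune subunit values was not tested.

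**Figure D3:**
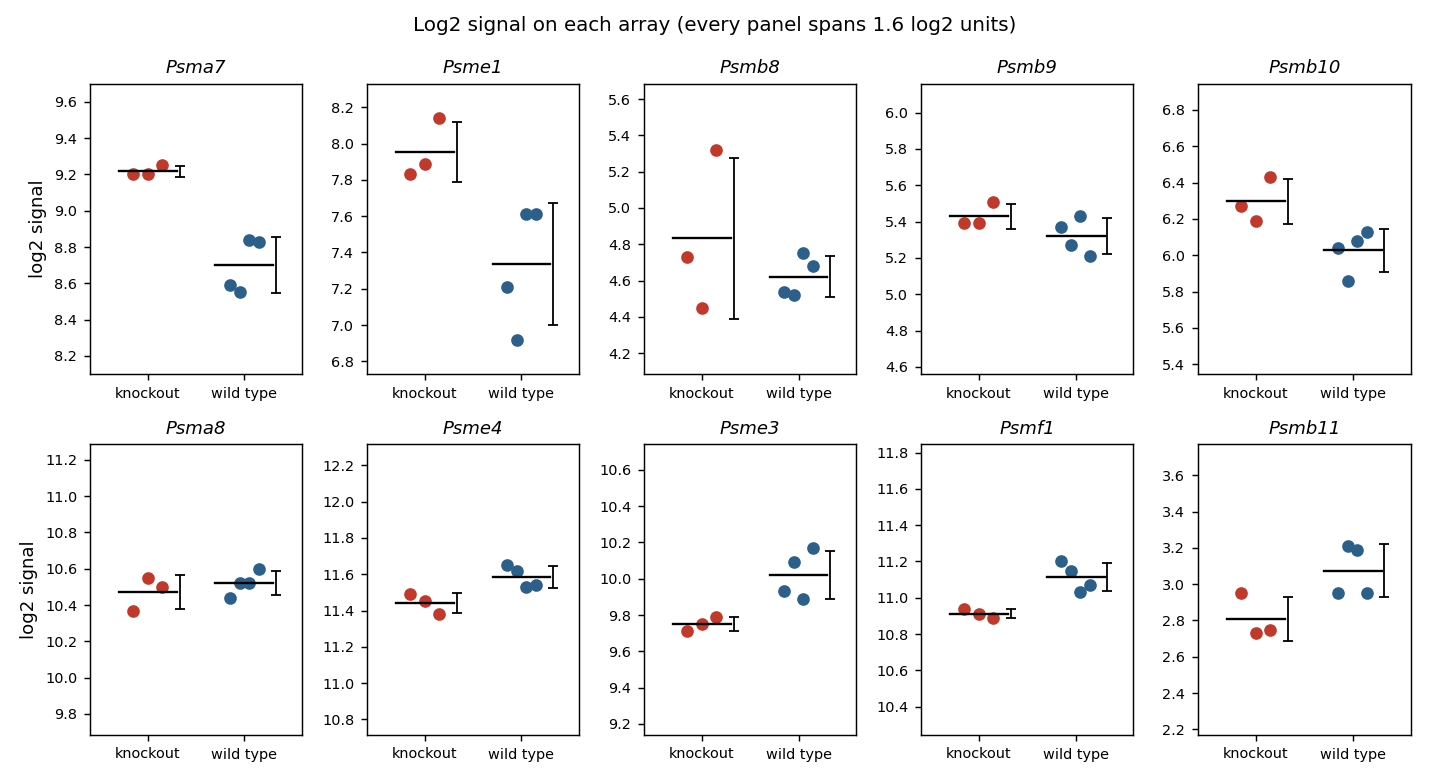
Log2 signal on each array (vertical axis, 1.6 units in every panel) of Psma7 and of the immune, germ cell, cap, inhibitor and thymus genes, knockout left of wild type, with horizontal lines at the means and error bars of 1 SD. Psma7 and Psme1 are separated between genotypes, Psma8 overlaps, and Psme4, Psme3 and Psmf1 are lower in knockout arrays by 0.15 to 0.27 on average.

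Fold changes of the 19S particle were small with the brightest probe sets. Of its 17 genes, 6 for base ATPases, 3 for other base subunits and 8 for the lid, 0 passed limma's adjusted threshold (16.1% of all genes did) and 1, Psmc3, had an unadjusted p under 0.05 (33.8% of all genes did). Their median log2 fold change was −0.02 (0.05 with quantile normalization and −0.07 with median centring), 7 were positive and 10 negative, and the 95% interval of all 17 lay within 1.5-fold either way. With the second brightest probe set 1 of the 17, Psmc6, passed limma's adjusted threshold. Other probe sets of Psmc6 and Psmd11 had larger fold changes, which are given below. Psmc3, the brightest ATPase probe set, had 11.78 in each knockout array, against 11.94, 11.90, 11.92 and 11.91 in wild type arrays. The genotypes were separated by a small step, a fold change of −0.14 (SE 0.05, limma adjusted p = 0.107). Psmc2, another ATPase gene, had 11.82, 11.75 and 11.79 in knockout arrays, against 11.87, 11.90, 11.85 and 11.88 in wild type arrays (fold change −0.09, SE 0.05, adjusted p = 0.287).

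Among the scaffold subunits of the base, Psmd2 had a fold change of −0.06 (SE 0.07, limma adjusted p = 0.596) and Psmd1 of 0.05 (SE 0.07, adjusted p = 0.694). Psmd2 had 11.03, 11.04 and 10.90 in knockout arrays, against 11.04, 11.03, 11.14 and 10.97 in wild type arrays, and the groups overlapped. In the lid, Psmd7, the structural partner of the deubiquitinase subunit, had a fold change of 0.15 (SE 0.07, limma adjusted p = 0.207), Psmd3 of −0.11 (SE 0.07, adjusted p = 0.276) and Psmd8, the brightest lid probe set, of −0.10 (SE 0.06, adjusted p = 0.293). Lid fold changes ran from −0.11 to 0.15.

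The caps other than 19S differed in sign from Psme1. Psme3 encodes PA28 gamma, a nuclear activator that is not an interferon target. It had 9.71, 9.75 and 9.79 in knockout arrays, against 9.93, 10.09, 9.89 and 10.17 in wild type arrays. All knockout arrays were lower, and the fold change of −0.27 (SE 0.08, limma adjusted p = 0.0551) lay just outside the threshold. Psme3 passed in 5 of 19 settings, among them median centring (−0.32, limma adjusted p = 0.0335) and the fit without the dimmest 50% of genes (adjusted p = 0.0299). It did not pass with quantile normalization (−0.20, limma adjusted p = 0.0981), title-number group as a block (−0.28, adjusted p = 0.0633) or replicate block (−0.22, adjusted p = 0.132). The mean of all Psme3 probe sets gave −0.10 (limma adjusted p = 0.560), and the second brightest gave 0.13.
Psmf1 encodes PI31, first described as an inhibitor of the core. It had 10.94, 10.91 and 10.89 in knockout arrays, against 11.20, 11.15, 11.03 and 11.07 in wild type arrays, again without overlap (fold change −0.20, SE 0.06, limma adjusted p = 0.0655). Psme4, the PA200 gene, had 11.49, 11.45 and 11.38 in knockout arrays, against 11.65, 11.62, 11.53 and 11.54 in wild type arrays. These groups did not overlap either, and the highest knockout array (11.49) lay next to the lowest wild type array (11.53). The fold change was −0.15 (SE 0.06, limma adjusted p = 0.141). Among all genes, 15.2% had knockout arrays that were all lower than the wild type arrays. With the mean of all probe sets the fold change was −0.04 for Psme4 and −0.07 for Psmf1, and neither passed.

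Genes that build the proteasome but are not part of it had fold changes of both signs. Of 7 chaperone genes, 0 passed limma's adjusted threshold (16.1% of all genes did), 2 had an unadjusted p under 0.05 (33.8% of all genes did), and the median log2 fold change was −0.07. Psmd10, which encodes gankyrin, a base assembly chaperone, had 7.91, 7.95 and 8.02 in knockout arrays, against 7.66, 7.83, 7.69 and 7.81 in wild type arrays. Its knockout arrays were all higher, with a fold change of 0.21 (SE 0.07, limma adjusted p = 0.0667). Psmd9, another base chaperone, had 7.69, 7.95 and 7.79 in knockout arrays, against 7.95, 8.13, 7.95 and 8.10 in wild type arrays, and its fold change of −0.22 (SE 0.08, adjusted p = 0.103) was of the opposite sign. Psmg2, a core assembly chaperone gene and the brightest probe set of this class, had a fold change of −0.09 (SE 0.07, adjusted p = 0.406). Psme3ip1, which encodes a protein that binds PA28 gamma and is no subunit, had a fold change of 0.01 (SE 0.06).

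Other probe sets of the same genes were compared next. The 48 genes had 101 probe sets, of which 29 had a mean below the array medians. Of the 26 genes with more than 1 probe set, 14 had the same sign in all of them. With limma fitted on all 45037 probe sets that are not array controls, 3 of the 101 passed, all higher in knockout, against 8.51% of all probe sets (5.61% higher, 2.90% lower): both of Psma7 and 1 of Psmd11. Psmd11 and Psmc6 were singled out after their values were seen, because their probe sets disagreed. The Psmd11 probe set that rose had signals of 7.98 ± 0.10 in knockout (SD, n = 3), against 7.60 ± 0.09 in wild type (SD, n = 4) (fold change 0.38, SE 0.07, limma adjusted p = 0.0245), while another had −0.50 (SE 0.15, adjusted p = 0.0791) and the brightest 0.07. The 3 Psmc6 probe sets had fold changes of 0.10, 0.52 and 0.49, of which the second had a limma adjusted p of 0.0606 and passed with title-number group as a block (adjusted p = 0.0424). The third of these was below the array medians.

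**Figure D4:**
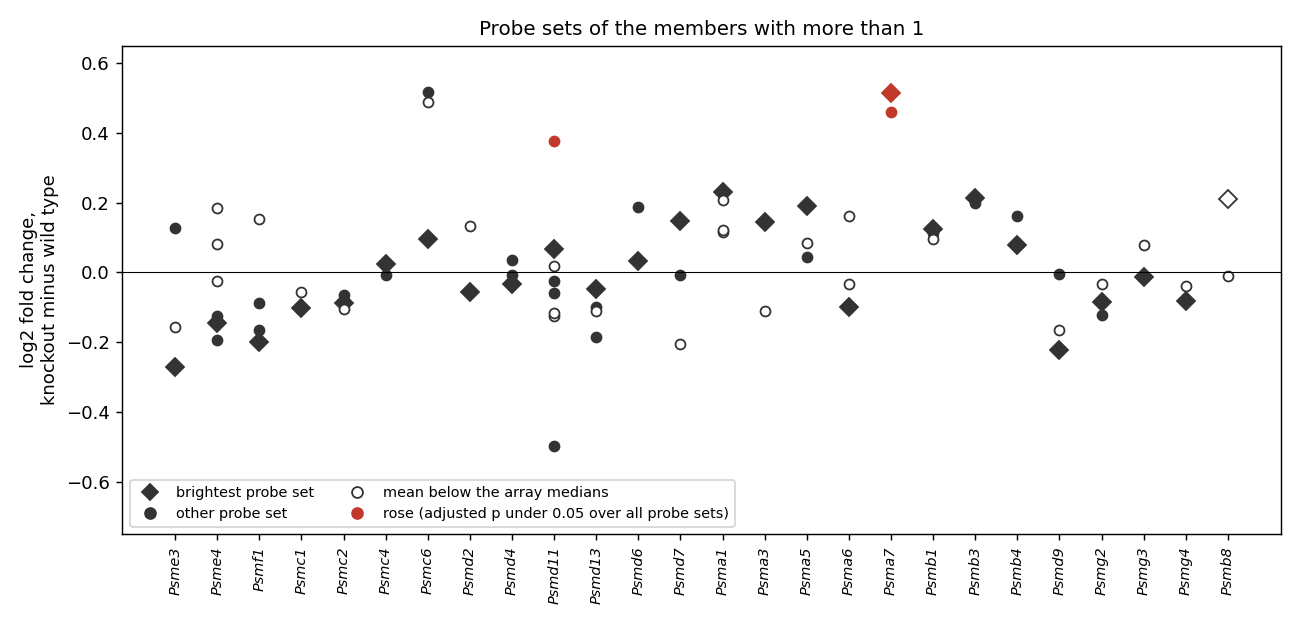
Log2 fold change (knockout minus wild type, vertical axis) of every probe set of the 26 genes with more than 1, with diamonds for the brightest, circles for the others, open symbols for means below the array medians and red for those that passed. Both Psma7 probe sets lie at 0.46 to 0.51, while those of Psmd11 run from −0.50 to 0.38.

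Among proteasome partners named by other symbols, the share that rose was near that of all genes. Of 20 measured genes for shuttle factors, deubiquitinases, assembly factors and transcription factors, 2 rose (10%, against 9.06% of all genes), 0 fell and 18 did not pass (median log2 fold change 0.06). Ubqln2, a shuttle factor that carries ubiquitinated proteins to the proteasome, had 9.23, 9.05 and 9.39 in knockout arrays, against 8.33, 8.04, 8.63 and 8.56 in wild type arrays. The groups were well apart (fold change 0.83, SE 0.15, limma adjusted p = 0.0139), but the mean of all its probe sets gave 0.24 (adjusted p = 0.0699). Nfe2l2, which encodes the stress transcription factor NRF2, had 7.69, 7.72 and 8.04 in knockout arrays, against 7.09, 7.11, 7.30 and 7.29 in wild type arrays (fold change 0.62, SE 0.10, adjusted p = 0.0129). The mean of all its probe sets gave 0.26 (limma adjusted p = 0.0206), and the call was lost without knockout 3 (0.51, adjusted p = 0.0505), as was that of Ubqln2 (0.75, adjusted p = 0.0581). The 19S deubiquitinase gene Uchl5 had a fold change of −0.17 (SE 0.06, adjusted p = 0.0991) and the proteasome-bound ligase gene Ube3c of −0.17 (SE 0.07, adjusted p = 0.106). The 2 measured ubiquitin-activating enzyme genes, Uba6 (0.22) and Uba1y (0.20), did not pass (limma adjusted p = 0.107 and 0.109). Nfe2l1, named after its values were seen because its product NRF1 drives proteasome genes when the proteasome is inhibited, had a fold change of 0.13 (SE 0.09, adjusted p = 0.345).

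NRF1 and NRF2 bind the antioxidant response element, so the element TGACNNNGC was searched on both strands of the 250 bases before each start. It was found in 5 of the 40 windows (12.5%), against 11.5% of all genes. The 5 stretches are shown with up to 20 bases on either side so that each match can be seen in its place, from GRCm38.p6, 5′ to 3′ on the strand of the gene, with the match in capitals. Their positions are chr14:54618014-54618062 (minus strand) for Psmb5, chr11:70525328-70525356 for Psmb6, chr14:45329577-45329625 for Psmc6, chr11:107479278-107479309 for Psmd12 and chr5:123228139-123228187 for Psmd9, the last 4 on the plus strand.
Psmb5: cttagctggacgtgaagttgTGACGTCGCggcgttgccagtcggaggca
Psmb6: cagaggcggactaaagagagTGACGGAGC
Psmc6: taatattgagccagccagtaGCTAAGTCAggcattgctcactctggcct
Psmd12: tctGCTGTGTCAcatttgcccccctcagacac
Psmd9: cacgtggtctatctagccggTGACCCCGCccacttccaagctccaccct
Psmb5 and Psmb6 encode proteolytic core subunits of the chymotrypsin-like and caspase-like kind. The log2 fold changes of the 5 genes were 0.05, −0.08, 0.10, −0.02 and −0.22, in the order shown. None passed limma's adjusted threshold (16.1% of all genes did) and 1 had an unadjusted p under 0.05 (33.8% of all genes did). Neither Psma7 nor Psme1 held a match in this window. Bases outside the window were not searched, and the part of NRF1 or NRF2 in these values was not tested.

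Markers of several cell types differed between the genotypes. Over all genes 9.06% rose and 7.03% fell. Of 12 Sertoli cell markers, 10 rose and 0 fell, with a mean log2 signal of 8.37 to 8.55 in knockout arrays, against 7.73 to 8.07 in wild type arrays. Of 7 Leydig cell markers, 4 rose and 0 fell (9.54 to 9.94 in knockout, 8.70 to 9.21 in wild type). Of 10 round spermatid markers, 0 rose and 2 fell (10.32 to 10.36 in knockout, 10.44 to 10.65 in wild type), and of 11 elongating spermatid markers 0 rose and 1 fell (12.50 to 12.55 in knockout, 12.58 to 12.68 in wild type). Of 10 pachytene spermatocyte markers, 0 rose and 2 fell (10.03 to 10.20 in knockout, 10.25 to 10.28 in wild type). With title-number group as a block 12.7% of all genes passed. Under it 9 of 12 Sertoli and 4 of 7 Leydig cell markers rose and 2 of 10 pachytene spermatocyte markers fell. None of the round or elongating spermatid markers passed under it (limma adjusted p = 0.0809 for Crem, 0.0788 for Tssk2 and 0.0818 for Prm3, the 3 that had fallen). In whole testis, fewer cells of a type and less RNA per cell cannot be told apart, and the part of these shifts in the values of Psma7, Psme1, Psme3, Psme4 and Psmf1 was not tested.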

How the data were processed

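Per the labels' protocols, total RNA of whole testis was extracted with Trizol and biotinylated cRNA made from 2 ug was hybridised to Affymetrix arrays. The authors' deposited table gives log2 signals for 45101 probe sets on 7 arrays; that they are log2 was read from their range, 1.59 to 13.92. The submitters' processing notes list Affymetrix Expression Console 1.4.1; the summarisation and normalization are not given in the sources used here. No normalization was added.

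Gene symbols came from GEO's platform annotation: 34958 probe sets had 1 symbol, 932 several and 9211 none. The 64 array controls were left out. The genotype comparison used lmFit and eBayes of limma 3.58.1 (R 4.3.3, two-sided, Benjamini-Hochberg over 18193 genes, threshold 0.05), an approach tested on simulated data. The simulated noise was independent between arrays, so that test does not cover the correlated deviations given below. All 48 proteasome genes matched RefSeq by symbol and gene identifier. With 7 arrays, standard errors of log2 fold changes had a median of 0.0843. "Rose" and "fell" mark genes past the threshold.

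The members and lists were chosen with earlier results of these data known, so no list was tested as a list. Values are given for members that passed, for all immune, germ cell, thymus, cap and inhibitor genes, for the brightest and the 2 of smallest unadjusted p of each role, and for up to 4 genes of each partner list. Psme3ip1, the genes of the antioxidant response element windows, Psmd11 and Nfe2l1 were named outside this rule. Alternatives were title-number groups or replicate numbers as a block, 2 scalings, 2 filters on dim genes, other probe set rules, trend and robust settings, array weights and leaving out arrays. Deviations from the genotype means correlated at 0.103 to 0.319 between genotypes where arrays shared a title-number group and at 0.0227 or below where they did not; same-numbered replicates correlated at 0.182, 0.103 and −0.143, so replicate numbers were not taken to pair the arrays.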

Additional observations from a re-analysis of the deposited data

How the results depend on the processing

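The count of proteasome genes past the adjusted threshold, 2, was 1 when title-number group was a block, 6 under either filter on dim genes (4 higher, and Psme3 and Psmf1 lower), 5 with trend and robust settings (2 higher, and Psmc3, Psme3 and Psmf1 lower), 0 to 3 with 1 array left out and 0 without knockout 3 and wild type 4 together. Over all genes the count, 2928, was 175 to 2572 with 1 array left out and 4 without both of these arrays. Dropping knockout 3 gave 175, knockout 1 gave 994, wild type 1 gave 740 and wild type 2 gave 1363. The all-gene count rose where the proteasome count rose to 6 or 5. Under the milder filter on dim genes 3450 of 12125 genes passed, against 6 of 46 proteasome genes. Without the dimmest 50% these were 3264 of 9094 and 6 of 44, and with trend and robust settings 3442 of 18193 and 5 of 48. In each of these settings the share that passed was lower among proteasome genes than among all genes. The count of proteasome probe sets, 3, was 5 with quantile normalization, 5 under the milder filter on dim genes, 7 without the dimmest 50%, 8 with trend and robust settings, 0 to 4 with 1 array left out and 0 without both arrays. A Psmc6 probe set passed under both filters, both blocks, trend and robust settings and without wild type 4. With the replicate block the probe set count was 5, and the count of genes stayed at 2; no call among the 48 genes changed under this block, while Tapbp (0.23, adjusted p = 0.104) did not pass under it. Counting the reported fit, Psma7 passed in 17 of 19 settings and Psme1 in 12 of 19. These settings are not independent. Psme1 has 1 probe set, so the other probe set rules could not change its fold change. Wild type 4 stands alone in its replicate block, so fold changes under that block equal those without wild type 4. The exceptions for Psma7 were leaving out knockout 3 and leaving out knockout 3 with wild type 4 (0.54, adjusted p = 0.0864). Without genes of low signal fewer genes are tested; the cause of the other shifts was not tested. Among the members named by the rule, signs turned for Psma8 (0.0399 with quantile normalization, −0.085 to 0.005 with 1 array left out), Psmd1 (−0.0017 with median centring), Psmd2 (0.039 with the mean of all probe sets, 0.13 with the second brightest), Psmd7 (−0.022 and −0.0067), Psme3 (0.13 with the second brightest) and Psmb8 (−0.01 with the second brightest, −0.0325 to 0.40 with 1 array left out, −0.013 without knockout 3 and wild type 4). None of these values passed. Other members turned too. With the second brightest probe set they included Psma3 (−0.11), Psmd11 (−0.0575), Psmc4 (−0.0075) and Psmg3 (0.078). The median of the 48 genes was −0.019 with median centring, where that of all genes was −0.093. No detection calls were used here, so signals below the array medians may be background.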
